A study of Mus musculus with 2 samples.

Results

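The genes described here are 9 mediators with which skin epithelium signals injury: the cytokines Il24, Il33, Il1a, Il1b and Il18, the interleukin-1 receptor antagonist Il1rn, the neutrophil-attracting chemokines Cxcl1 and Cxcl2, and Ptgs2, the inducible cyclooxygenase. They were taken by gene symbol and make up 9 of the 32285 genes counted. The study compared hair follicle stem cells with and without floxed Phgdh, which encodes the first enzyme of serine synthesis, at rest and after wounding. Mice were Sox9-CreER;R26-LSL-YFP on C57B6/J, so that in every group a Cre driven by the Sox9 promoter had switched on YFP in hair follicle cells and their progeny, and they were either Phgdh fl/fl or Phgdh +/+. The 6 groups were fl/fl and +/+ skin that was unwounded, 3 days after wounding and 5 days after wounding. Animals were pooled, male and female per the labels; their ages and how Cre was activated are not given in the sources used here. Sorting removed cells with CD140a, CD117, CD31 or CD45 in every group and kept cells high in integrin-α6 and positive for YFP, but unwounded cells also had to be CD34+, CD200+ and SCA1-. All groups carried a hashtag antibody, went through 1 capture and were read as 3′ RNA.

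After filtering, the fl/fl pools held 662 (unwounded), 523 (3 days) and 1434 (5 days) cells, and the +/+ pools held 406, 1281 and 1353 cells. Median UMIs per cell lay between 7174.5 and 7243 in the unwounded pools and between 36277 and 45701.5 in the wounded ones. With 1 pool per condition there was no replicate and no test, so "higher" and "lower" describe these pools. Levels are CPM (a gene's UMIs scaled to the same total in every pool) with exact Poisson 95% intervals, ratios carry exact conditional binomial intervals, and all of these cover counting error only. A count of 3 UMIs, taken as the limit that a count of 0 allows, was worth between 0.0423 and 0.926 CPM. Phgdh itself stood at 25.2, 15.3 and 20.2 CPM in the fl/fl pools (unwounded, 3 and 5 days), against 54.3 CPM, an interval of 114 to 120 CPM and 138 CPM in the +/+ pools; whether the counted end of the transcript lies in the deleted part is not given in the sources used here. No cell of a fl/fl pool was called female from Xist and Y-linked genes, while 31.1% of +/+ cells at 3 days and 23.7% at 5 days were. The unwounded +/+ pool had no cell called female either, so wounded and unwounded +/+ pools also differ in sex makeup. Sex was unclear for 57.1% of fl/fl and 48.5% of +/+ unwounded cells. Markers of bulge stem cells, the cells the study sorted, reached a summed level of 17933 CPM in fl/fl and 16926 CPM in +/+ unwounded cells, while wounded pools had sums from 369 to 1089 CPM, and none of the 10 markers was at 0 in any pool.

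Alarmins are molecules that damaged or stressed epithelium releases to alert immune cells. IL33 and IL1A wait in the cell and act on release, IL33 through the receptor ST2 and IL1A through IL1R1, while IL1B and IL18 must first be cut by inflammatory caspases. IL1RN occupies IL1R1 without signalling. IL24 belongs to the IL20 family and signals through IL20RB-containing receptors to STAT3. CXCL1 and CXCL2 draw neutrophils through CXCR2, and PTGS2 makes the precursor of prostaglandins. In many cell types NF-kB switches on much of this set.

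The genes lie apart in the mouse genome except for 2 pairs of related genes (GRCm38.p6 gene spans). Cxcl1 (chr5:90891245-90893121) and Cxcl2 (chr5:90903899-90905938) are neighbours, 10777 bases from end to start, and Il1a (chr2:129299609-129310186) and Il1b (chr2:129364569-129371164) lie near each other on chromosome 2, which also carries Il1rn (chr2:24336860-24351491). Il24 (chr1:130882074-130887411) and Ptgs2 (chr1:150100031-150108234) share chromosome 1, Il18 is at chr9:50554700-50581841 and Il33 at chr19:29925113-29960718. Some of the spans overlap another annotated gene, Il33 with Gm41832, Il1a with Gm14023, Il1b with Il1bos and Il18 with Bco2 and Tex12, and reads there could belong to either.

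Promoter sequences are given for 4 genes that were high together in 1 group of wounded cells, and for Il33, which was high in another. RefSeq promoter sequences (GRCm38.p6) were found for 8 of the 9 genes, in 11 promoters; Il24 is not among them. Each line gives the 120 bases before the start site on the gene's strand, with every match to the NF-kB pattern, GGG and CC with any 5 bases between them on either strand, in capitals; overlapping matches run together.
Cxcl1, chr5:90891125-90891244, plus strand: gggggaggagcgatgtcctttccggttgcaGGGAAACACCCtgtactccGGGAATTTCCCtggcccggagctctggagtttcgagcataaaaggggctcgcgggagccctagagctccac
Cxcl2, chr5:90903779-90903898, plus strand: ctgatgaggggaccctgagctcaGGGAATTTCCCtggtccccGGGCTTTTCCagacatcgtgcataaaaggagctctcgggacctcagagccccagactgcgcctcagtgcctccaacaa
Ptgs2, chr1:150099911-150100030, plus strand: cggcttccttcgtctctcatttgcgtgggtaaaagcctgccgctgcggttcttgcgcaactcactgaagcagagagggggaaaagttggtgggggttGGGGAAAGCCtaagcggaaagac
Il1a, chr2:129309973-129310092, minus strand: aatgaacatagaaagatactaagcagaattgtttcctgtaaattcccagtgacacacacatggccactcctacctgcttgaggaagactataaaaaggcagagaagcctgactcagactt
Il33, chr19:29924993-29925112, plus strand: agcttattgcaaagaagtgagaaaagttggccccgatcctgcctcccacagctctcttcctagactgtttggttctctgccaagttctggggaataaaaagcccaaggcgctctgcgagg

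The Cxcl1 and Cxcl2 windows share a run of 14 bases, GGGAATTTCCCTGG, that starts 71 bases before the Cxcl1 start site and 97 bases before the Cxcl2 start site. The run was picked as the longest that these windows share. Any given run of 14 bases is rare, so the number of promoters that hold it is a description only. No other promoter of the 32851 in the table held it (2 in all, 0.00609%), and the 10 bases GGGAATTTCC alone stood in 29 promoters (0.0883%). The wide NF-kB pattern was found far more often: it was in 6 of the 11 promoters of these genes, or 54.5%, and in 50.8% of all promoters of the same length. Il1rn and Il33 each supply more than a single promoter to the 11, so these are not separate genes. Overlapping Il1rn promoters hold the same GGGTTTTTCC, which enters the count for each. For Il33 the window printed above is the one at the start of its gene span. TATAAA, on either strand, was in 54.5% of the promoters of these genes and 13.6% of all, and the AP-1 pattern TGANTCA in 18.2% and 7.81%. The Il1a window holds TATAAA 32 bases and TGACTCA 12 bases before its start site. A match describes letters, not binding.

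Of these 9 genes, 8 were higher in wounded than in unwounded pools of both genotypes; Il1b, the exception, is described further on. The 8 had a mean of at least 5 CPM over the 6 pools, and all 8 were at least 2-fold higher in each of the 4 comparisons of a wounded with its unwounded pool: fl/fl at 3 days, fl/fl at 5 days, +/+ at 3 days and +/+ at 5 days. In +/+ the count depended on the cells kept: with cells of up to 20% mitochondrial UMIs it was 7 at 3 days, without Cxcl2, and 6 at 5 days, without Cxcl2 and Il24, and with at least 2000 UMIs per cell or at most 5% mitochondrial UMIs it was 7 at 5 days, without Ptgs2, which was under 2-fold among male cells too. Among all 10045 genes of that level, 13.1% were at least 2-fold higher in fl/fl at 3 days, 13.3% in fl/fl at 5 days, 12.6% in +/+ at 3 days and 11.7% in +/+ at 5 days. At least 2-fold lower were 26.2% and 26.3% in fl/fl (3 and 5 days) and 26.0% and 26.6% in +/+. Il1a, Il1rn, Il18 and Cxcl2 were under 5 CPM in both unwounded pools and reached that mean only through the wounded ones, so the count is a description. The median log2 fold of the 8 was 2.95 and 2.73 in fl/fl (3 and 5 days) and 2.59 and 2.64 in +/+, where the median of all genes lay between -0.28 and -0.24. TMM factors (edgeR) would add between 0.53 and 0.60 to every one of these log2 folds.

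Wounded and unwounded cells also passed different gates and fell into different clusters. No cluster held 20 cells of both a wounded pool and its unwounded pool, so the wound and the kind of cell sorted cannot be told apart here. Free RNA, measured in barcodes too shallow to be cells, made up 3.28% of fl/fl and 3.21% of +/+ unwounded UMIs and between 0.517% and 0.635% of wounded ones. It would put 2.88 CPM of Il24 into the fl/fl and 2.81 CPM into the +/+ unwounded pool. Of 14 genes that tissue dissociation is known to induce, such as Fos and Jun, none was at least 2-fold higher in a wounded than in its unwounded pool, and their median log2 fold was -1.53 and -1.24 in fl/fl (3 and 5 days) and -0.69 and -0.48 in +/+.

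At 3 days Il24 in both genotypes and Cxcl1 in +/+ were among the genes furthest above their unwounded level. The largest ratios, of Cxcl2 in fl/fl and of Il1a in +/+, rest on 2 and 1 unwounded UMIs and are given further on. Il24 was 14.2-fold higher in fl/fl (11 to 18.5) and at a log2 fold of 4.0 in +/+ (3.46 to 4.60), and Cxcl1 was 8.08-fold higher in fl/fl (5.66 to 11.9) and 18.6-fold higher in +/+ (8.52 to 50.7). Ptgs2 was 9.41-fold higher in fl/fl (7.68 to 11.7) and 3.50-fold higher in +/+ (2.95 to 4.19). Il33 was 7.44-fold higher in fl/fl (5.58 to 10.1) and 5.11-fold higher in +/+ (3.99 to 6.66). The +/+ folds of Il24 and the chemokines rest on the limit of 10% mitochondrial UMIs. With cells of up to 20%, 1 unwounded +/+ cell held 129 of 174 Il24 UMIs, and Il24 was at 129 CPM (3 days) and 54.7 CPM (5 days) in +/+ cells, against 44.3 CPM in unwounded +/+ cells. Under the same limit Cxcl1 was at 33.7 and 27.3 CPM in wounded +/+ cells, against 11.7 CPM in unwounded +/+ cells, where 36 of its 46 UMIs came from 1 cell. Cxcl2 was then at 14.5 and 8.32 CPM in wounded +/+ cells, against 8.66 CPM in unwounded +/+ cells. The folds of Ptgs2 and Il33 in +/+ rest on unwounded levels that 1 cell each raised. By 5 days Ptgs2 was 6.32-fold above unwounded cells in fl/fl (5.16 to 7.82) and 2.24-fold in +/+ (1.88 to 2.68), and Il33 9.62-fold in fl/fl (7.25 to 13.1) and 5.37-fold in +/+ (4.19 to 7.0).

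**Figure D1:**
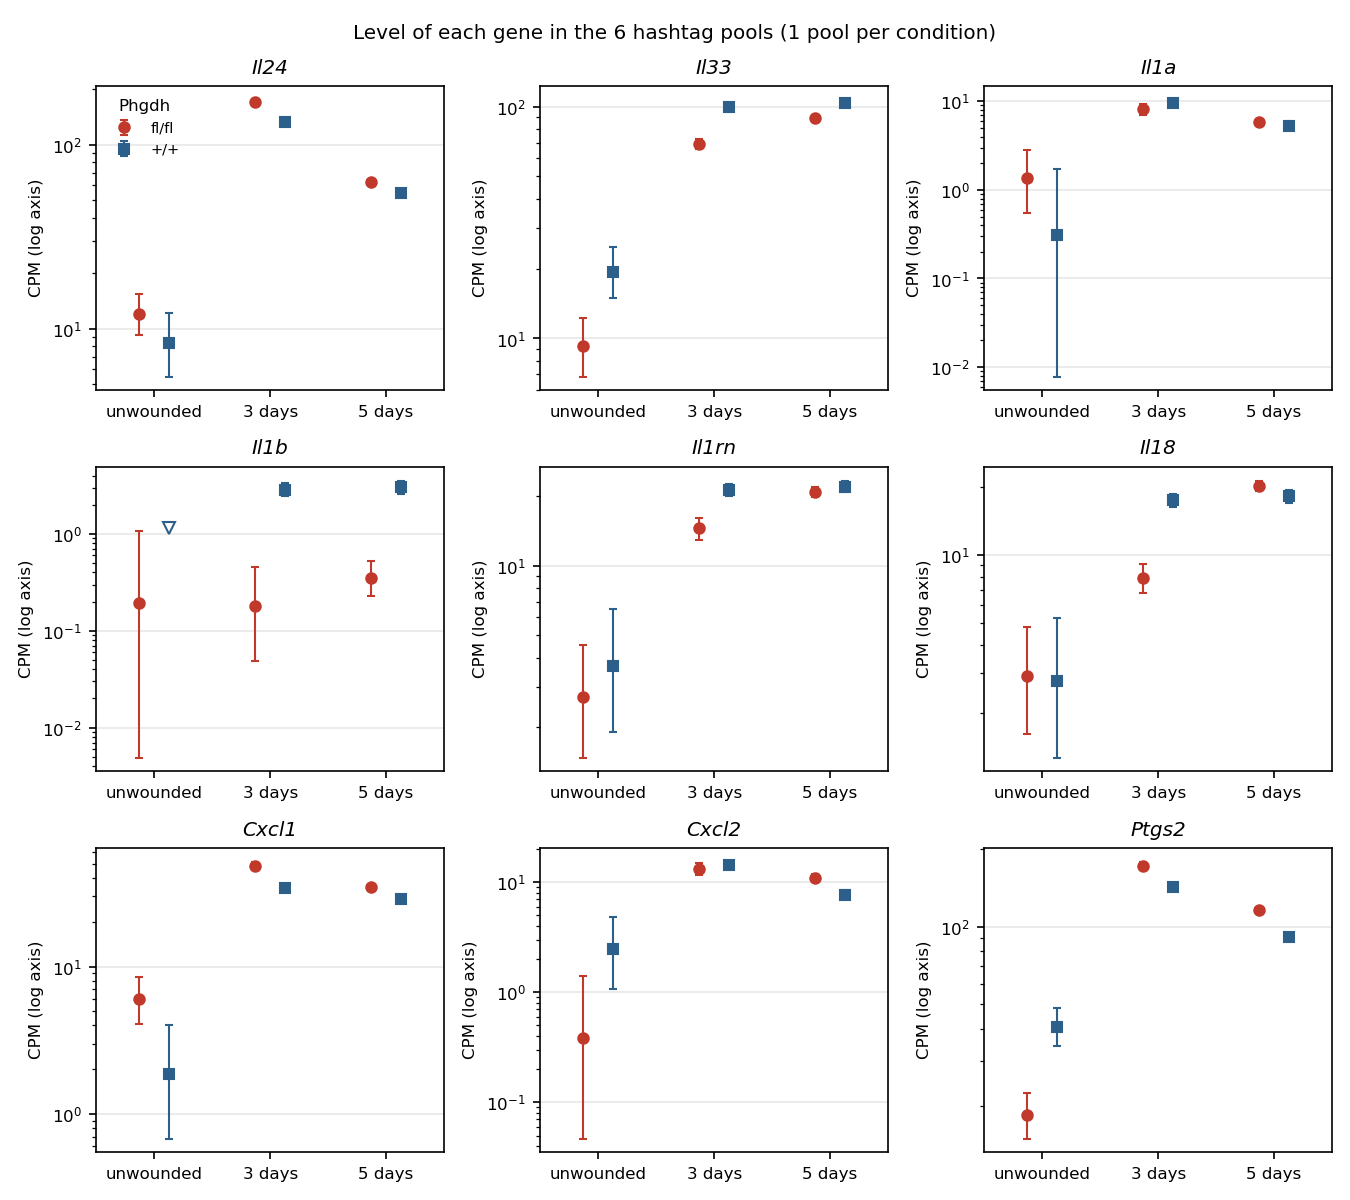
Level of each gene in CPM (log axis) in the 6 pools, unwounded, 3 days and 5 days after wounding, with fl/fl as red circles left of +/+ as blue squares and bars for exact Poisson 95% intervals; an open triangle marks the upper limit where no UMI was counted. Wounded pools stand above the unwounded pool of the same genotype in each case but Il1b in fl/fl at 3 days (0.180 against 0.194 CPM), and Il24 is higher at 3 than at 5 days in both genotypes.

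Of the 8 genes, Il24 alone was at least 2-fold lower at 5 than at 3 days in both genotypes. Its level was 12 CPM (9.20 to 15.4) in unwounded fl/fl cells, 170 (164 to 175) at 3 days and 62.4 (60.6 to 64.3) at 5 days. In +/+ cells it was 8.33 (5.49 to 12.1), 133 (130 to 137) and 54.9 (52.9 to 56.9). The 2 pools at 3 days were the highest, those at 5 days came next, and the unwounded pools were the lowest with intervals that overlap each other. Set against 3 days, the log2 fold at 5 days was -1.44 (-1.51 to -1.38) in fl/fl and -1.28 (-1.34 to -1.22) in +/+, where 3.28% of all genes in fl/fl and 1.09% in +/+ were at least 2-fold lower. Within clusters with at least 20 cells in both pools, Il24 was lower at 5 days in 8 of 10 clusters in fl/fl and 7 of 11 in +/+.

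Few cells made most of the Il24. The top 5% of cells held between 64.4% and 71.3% of its UMIs in each wounded pool. To compare shares of cells at 1 depth, cells were thinned to 3000 UMIs, which left out between 11 and 24 shallower cells per pool. An Il24 UMI was then found in 2.03%, 15.2% and 10.5% of fl/fl cells (unwounded, 3 and 5 days) and in 1.52%, 13.1% and 8.05% of +/+ cells. Free RNA alone would give 0.859% in fl/fl and 0.841% in +/+ unwounded cells and at most 0.167% in wounded ones. Unthinned, the shares were 4.83%, 37.1% and 31.8% in fl/fl and 4.19%, 31.9% and 24.2% in +/+. Of 10 myeloid-like cells described further on, none had an Il24 UMI at a median depth of 4501 UMIs, which allows a share of up to 30%.

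Il33, whose protein is held in the nucleus until the cell is damaged, was at much the same level at 3 and 5 days in +/+ cells. It stood at 9.29 CPM (6.85 to 12.3), 69.1 (65.7 to 72.7) and 89.4 (87.2 to 91.6) in fl/fl cells (unwounded, 3 and 5 days). In +/+ cells it stood at 19.4 (14.9 to 24.9), 99.4 (96.8 to 102) and 104 (102 to 107). The fl/fl value was the lower one at each stage, and the intervals of the pair of wounded +/+ pools overlap. In the unwounded +/+ pool 1 cell with 34 UMIs held 54.0% of the 63 Il33 UMIs, and without it the level was 8.95 CPM. Between 5 and 3 days the log2 fold was 0.37 in fl/fl and 0.07 in +/+, both under 2-fold.

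The IL33 receptor was close to undetected in these sorted cells. Il1rl1, which encodes ST2, was at 0, 0.0449 and 0.0423 CPM in fl/fl and at 0, 0.0552 and 0.055 CPM in +/+ pools, each at or under the worth of 3 UMIs. Its partner Il1rap was present at between 17.9 and 26.0 CPM in all 6 pools.

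Il1a was scarce, and over whole pools it was highest at 3 days. Its level was 1.35, 8.09 and 5.78 CPM in fl/fl cells (7, 180 and 410 UMIs) and 0.309, 9.55 and 5.32 CPM in +/+ cells (1, 519 and 290 UMIs). With 1 UMI in unwounded +/+ cells, the ratio of +/+ cells at 3 days to it was 30.9 with an interval from 5.53 to 1224. Among +/+ cells called male Il1a was at 6.13 CPM at 3 days and 6.28 CPM at 5 days, and among those called female at 14.5 and 1.90 CPM, so the male cells of that genotype showed no lower level at 5 days. Il1r1, the receptor of IL1A and IL1B, was lower after wounding, at 13.4, 6.07 and 5.77 CPM in fl/fl and 16.7, 6.57 and 6.81 CPM in +/+ pools. Il1r2, a decoy receptor, did not reach 5 CPM in any pool.

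Il1rn, the antagonist, had more UMIs than Il1a in every pool. In unwounded fl/fl cells, with 14 against 7 UMIs, the interval of the ratio (0.755 to 5.86) also allowed fewer. Il1rn was at 2.71, 14.5 and 20.9 CPM in fl/fl cells and 3.70, 21.2 and 22.0 CPM in +/+ cells. At 3 days there were 1.79 Il1rn UMIs per Il1a UMI in fl/fl (1.49 to 2.16) and 2.22 in +/+ (2.0 to 2.47). At 5 days there were 3.61 (3.23 to 4.03) and 4.14 (3.64 to 4.72). The ratio was thus larger at 5 than at 3 days in both genotypes, with intervals apart. UMIs here count transcript ends, so levels of different genes can be set side by side without a length correction.

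Most Il1b UMIs of the wounded cells lay in a few cells that carried immune markers. It was at 0.194, 0.180 and 0.352 CPM in fl/fl cells (1, 4 and 25 UMIs) and at 0, 2.87 and 3.03 CPM in +/+ cells (0, 156 and 165 UMIs), at least 3.10-fold higher in +/+ cells at 3 days and at least 3.27-fold higher at 5 days than the limit of 3 UMIs in unwounded +/+ cells. Of all cells, 6, all in wounded +/+ pools, carried 92, 57, 47, 39, 31 and 12 Il1b UMIs and together held 79.4% of the Il1b of all wounded cells. Of them, 5 had between 7 and 12 UMIs of the basal keratin Krt14, and the other had 1452.

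All 6 belonged to a cluster of 10 cells, found at the coarser Leiden resolution of 0.5, that was named myeloid-like from Lyz2 and Tyrobp among its leading genes. Ptprc, which encodes the CD45 that the sort was to remove, had a UMI in 10 of the 10, and Tyrobp in 9. The 10 cells were 2 fl/fl cells at 3 days, 6 +/+ cells at 3 days and 2 +/+ cells at 5 days. They also carried 383 Cxcl2 UMIs, at 4552 CPM, and no Il24 or Il18. Of the Il1b UMIs of +/+ cells, 91.0% at 3 days and 86.7% at 5 days lay in cells with at least 2 UMIs of immune markers, and without those cells Il1b was at 0.286 and 0.443 CPM, under the limit of 0.926 CPM in the unwounded +/+ pool. The 35 immune markers summed to 8.52, 15.4 and 7.25 CPM in the fl/fl pools and 6.79, 16.2 and 16.4 CPM in the +/+ pools.

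Il18 was at a similar level in 3 of the wounded pools and lower in the fl/fl pool at 3 days. It was at 2.90 CPM (1.62 to 4.79), 7.87 (6.74 to 9.12) and 20.1 (19.1 to 21.2) in fl/fl cells, and at 2.78 (1.27 to 5.27), 17.4 (16.3 to 18.6) and 18.1 (17.0 to 19.3) in +/+ cells. The fl/fl pool at 3 days was the low one of the 4 wounded pools, and the other three lay close together. At 5 over 3 days its log2 fold was 1.36 (1.13 to 1.59) in fl/fl, where 0.916% of all genes were at least 2-fold higher, and 0.05 (-0.08 to 0.18) in +/+, where 0.458% were and no gene of this set was. Within clusters it was higher at 5 days in 10 of 10 in fl/fl, 6 of them by at least 2-fold, and in 5 of 11 in +/+.

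The machinery around IL1B and IL18 was present but uneven. Among 10 measured inflammasome and processing genes, 4 were at least 2-fold higher in every wounded pool and at most 1 was lower. Of all genes, 11.7% to 13.3% were higher and 26.0% to 26.6% lower by that much. Pycard, the adaptor that joins sensors to caspase-1, was at 132, 443 and 475 CPM in fl/fl and 126, 445 and 458 CPM in +/+ pools. For Gsdmc, of the pore-forming gasdermins, the values were 2.71, 27.0 and 35.5 CPM in fl/fl and 2.78, 29.7 and 35.4 CPM in +/+ pools. Casp1 itself, which cuts IL1B and IL18, was between 7.40 and 11.8 CPM throughout, and the sensor Nlrp3 stayed under 0.5 CPM; these 2 were chosen for their role after their values were seen. The 2 other measured ligands of the family, Il1f9 (IL36 gamma) and Il1f5 (the IL36 receptor antagonist), were at least 2-fold higher in all 4 wounded pools, Il1f9 at 4.64, 26.0 and 51.3 CPM in fl/fl and 4.32, 33.4 and 42.0 CPM in +/+ pools.

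Cxcl1 and Cxcl2 were both higher after wounding, Cxcl1 being the more abundant. Cxcl1 was at 6.0, 48.5 and 34.5 CPM in fl/fl cells and 1.85, 34.4 and 28.7 CPM in +/+ cells. Cxcl2 was at 0.387, 13.2 and 11 CPM in fl/fl cells and 2.47, 14.2 and 7.72 CPM in +/+ cells. The unwounded values rest on 31 and 2 UMIs in fl/fl and on 6 and 8 UMIs in +/+ for Cxcl1 and Cxcl2, and 1 fl/fl cell held 54.8% of the 31. Against those few UMIs the fl/fl ratio of Cxcl2 was 34.0 at 3 days (9.34 to 282) and 28.4 at 5 days (7.85 to 235). Without the 10 myeloid-like cells Cxcl2 was at 8.73 and 11 CPM in wounded fl/fl cells (3 and 5 days) and at 9.78 and 6.96 CPM in wounded +/+ cells, so that the lower level at 5 than at 3 days was then seen in +/+ and not in fl/fl; the difference between genotypes was not tested. Cxcl3, another chemokine of the same receptor, was at 0.581, 13.1 and 9.49 CPM in fl/fl and 0.309, 6.49 and 4.55 CPM in +/+ pools.

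Cxcl1 was found in a larger share of cells with Cxcl2 than of all cells in each wounded pool at a depth of 10000 UMIs, but not in each at 3000 UMIs. At a depth of 10000 UMIs, Cxcl1 was found in 40.0% (6 of 15) and 47.5% (19 of 40) of fl/fl cells with Cxcl2 at 3 and 5 days, against 13.5% and 10.6% of all fl/fl cells. In +/+ cells it was found in 37.0% (10 of 27) and 33.3% (10 of 30) of those with Cxcl2, against 12.1% and 9.60% of all cells. At 3000 UMIs it was found in 0 of 8 and 8 of 27 (29.6%) fl/fl cells with Cxcl2, against 6.10% and 5.34% of all fl/fl cells, and in 7 of 21 (33.3%) and 5 of 20 such +/+ cells, against 5.83% and 4.97% of all. These are a few cells per pool.

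Ptgs2 was the most abundant of the 9 in 5 of the 6 pools, and at 3 days in fl/fl its interval overlapped that of Il24. At 5 days in +/+ cells Il33 was above it. It was at 18.4 CPM (14.9 to 22.5), 173 (168 to 179) and 116 (114 to 119) in fl/fl cells. In +/+ cells it was at 40.7 (34.1 to 48.3), 143 (140 to 146) and 91.1 (88.6 to 93.7). Neighbours in the order of the 6 pools had intervals apart in each case. The unwounded +/+ value leaned on 1 cell with 61 of the 132 UMIs, and without it the level was 21.9 CPM.

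Several genes of prostaglandin synthesis were higher after wounding, while those of prostaglandin breakdown went both ways. Among 12 measured genes of the list, 6 were at least 2-fold higher and 2 at least 2-fold lower in each of the 4 wounded pools, beside the 11.7% to 13.3% of all genes that were higher and the 26.0% to 26.6% that were lower. Ptges, the synthase downstream of PTGS2, had levels of 19.7, 161 and 93.8 CPM in fl/fl and 19.1, 142 and 79.6 CPM in +/+ pools. Hpgd, which inactivates prostaglandins, was at 169, 5.39 and 4.06 CPM in fl/fl and 119, 6.31 and 4.13 CPM in +/+ pools. Ptgr1, a prostaglandin reductase that acts in the same breakdown, was higher, at 22.3, 54.7 and 83.6 CPM in fl/fl and 24.4, 57.5 and 76.3 CPM in +/+ pools (named for its role after its values were seen). The phospholipase Pla2g4a, which frees arachidonic acid, was the other lower gene (named for its role after its values were seen), at 140, 38.3 and 46.5 CPM in fl/fl and 129, 42.1 and 46.6 CPM in +/+ pools, whereas its relative Pla2g4e was at 2.90, 57.4 and 31.3 CPM in fl/fl and 11.1, 63.3 and 31.5 CPM in +/+ pools.

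**Figure D2:**
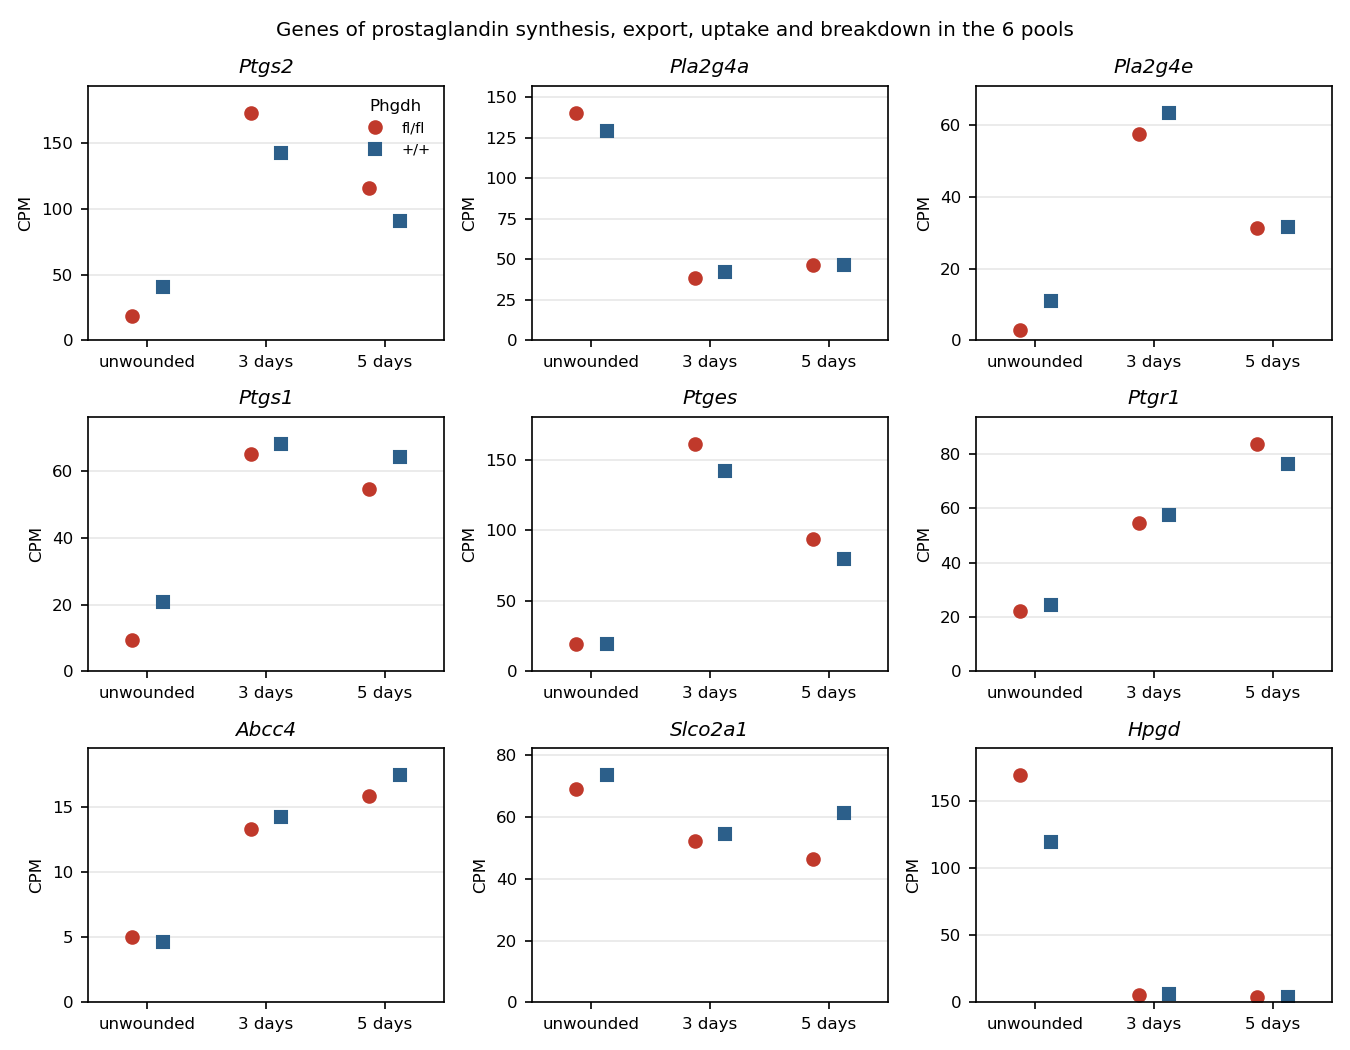
CPM of Ptgs2 and of 8 other prostaglandin genes in the 6 pools, with fl/fl as red circles left of +/+ as blue squares; the 8 were picked from the 12 measured to cover synthesis, export, uptake and breakdown, after their values were seen. Ptges follows the order of Ptgs2 over the 3 stages, while Hpgd is at 169 CPM in fl/fl unwounded cells, 119 CPM in +/+ unwounded cells and under 7 CPM in every wounded pool.

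Shares of cells with a UMI were also taken at an equal depth of 3000 UMIs. A Ptgs2 UMI was found in 2.81%, 20.1% and 16.5% of fl/fl cells (unwounded, 3 and 5 days) and in 5.82%, 15.8% and 12.5% of +/+ cells, where free RNA alone would give at most 1.52%. For Il33 the shares were 2.81%, 10.0% and 12.4% in fl/fl and 2.53%, 12.3% and 10.6% in +/+ cells, with free RNA at no more than 1.23%. Cxcl2 was found in few cells, with a UMI in 1.57% and 1.90% of wounded fl/fl cells (3 and 5 days) and 1.65% and 1.5% of wounded +/+ cells. In unwounded fl/fl cells it was found in 0 of 640, which allows a share of up to 0.469%. Among wounded pools the shares of Il33 and Cxcl2 did not follow the order of their levels, so no order is read from these shares.

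Between 3 and 5 days the genes parted. Those lower at 5 days over whole pools of both genotypes were Il24, Il1a, Cxcl1, Cxcl2 and Ptgs2, with log2 folds of -0.57 (-0.63 to -0.52) in fl/fl and -0.65 (-0.70 to -0.60) in +/+ for Ptgs2 and of -0.26 (-0.45 to -0.06) in fl/fl and -0.88 (-1.05 to -0.71) in +/+ for Cxcl2, which in fl/fl turned over without the myeloid-like cells as given above. Il33 and Il1rn were not lower: Il1rn had a log2 fold of 0.53 (0.35 to 0.71) in fl/fl and 0.05 (-0.06 to 0.17) in +/+. Except for Il24 and, in fl/fl, Il18, all of these were under 2-fold, and the medians of the 8 were -0.37 in fl/fl and -0.45 in +/+ against -0.01 and -0.04 for all genes. Clusters with at least 20 cells in both pools and enough UMIs to compare were mixed. Ptgs2 was lower at 5 days in 7 of 10 clusters in fl/fl and 8 of 11 in +/+. In the same order the counts were 7 of 9 and 5 of 11 for Cxcl1 and 3 of 8 and 4 of 9 for Cxcl2. For Il1a they were 3 of 8 and 4 of 10, for Il33 6 of 10 and 5 of 11, and for Il1rn 3 of 9 and 7 of 11.

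Within the wounded skin, the 9 genes divided between different cells. Cells were clustered without these genes, so their levels in a cluster had no part in making it. Cluster 4 (571 cells, led by Mmp10, Mmp13, Hmga2 and Mmp3, called wound-edge keratinocyte-like from fixed markers) held 14.1% of all UMIs but 68.5% of Il24, 45.8% of Cxcl1, 42.8% of Il1a, 37.0% of Ptgs2 and 30.9% of Cxcl2. It held 2.52% of Il33. The collagenases and stromelysins that lead it are known from keratinocytes moving over a wound bed.

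Cluster 3 (481 cells, led by Krt6b, Gjb2, S100a8 and Sprr1b, also wound-edge keratinocyte-like) carried the Il33. It held 14.5% of UMIs, 50.7% of Il33 and 19.8% of Ptgs2. Il33 stood at 317 CPM (310 to 323) there and at 16.2 CPM (14.8 to 17.7) in cluster 4, whereas Il24 stood at 41.7 CPM (39.4 to 44.0) there and at 428 CPM (420 to 435) in cluster 4. The granular keratinocyte-like cluster 12 (119 cells, led by Lce3c) had 258 CPM of Il33 and, at 46.6 CPM, the highest Il1rn of the 16 clusters.

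Il18 and Il1rn had other places. The suprabasal keratinocyte-like cluster 9 (761 cells, led by Flg and Krt1) held 34.7% of Il18 and 27.3% of Il1rn with 16% of UMIs. The unnamed cluster 5 (381 cells, led by Tspear and Sox6) had 53.3 CPM of Il18, the highest of the clusters, and 33.4 CPM of Il1rn. In cluster 4 there were 0.543 Il1rn UMIs per Il1a UMI (0.473 to 0.623), against 3.77 in cluster 3 and 9.85 in cluster 9. Of 13 clusters with at least 20 UMIs of the pair, cluster 4 was the only one with more Il1a than Il1rn.

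Ptgs2 was spread over more of the clusters. It stood at 317 CPM (304 to 331) in cluster 12, 313 (306 to 319) in cluster 4, 191 (186 to 196) in the cycling-like cluster 6 and 162 (158 to 167) in cluster 3, and at 16.8 CPM (15.4 to 18.2) in cluster 9. A Ptgs2 UMI was found, unthinned, in 84.1% of the cells of cluster 4, whose median depth was 48336 UMIs, and in 23.5% of cluster 9, at 42197 UMIs. Clusters 12 and 4 had overlapping intervals, so the highest Ptgs2 lay both where Il33 was high and where Il24 was.

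Bulge stem cell-like clusters differed by where their cells came from. The clusters 8, 14 and 15, almost all unwounded cells, had between 5.02 and 8.67 CPM of Il24, between 6.50 and 8.43 CPM of Il33 and between 1.61 and 4.33 CPM of Cxcl1. Cluster 13, bulge stem cell-like but nearly all from wounded skin, had 39.5 CPM of Cxcl1 and 23.1 CPM of Il24, with 6.27 CPM of Il33 and 1.46 CPM of Il18. Cluster 7 (282 cells, led by Dct, Vim and Pmel, unnamed) mixed several kinds of cell, the myeloid-like ones among them, and had 110 CPM of Cxcl1, 79.7 CPM of Cxcl2 and 38.1 CPM of Il1b.

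**Figure D3:**
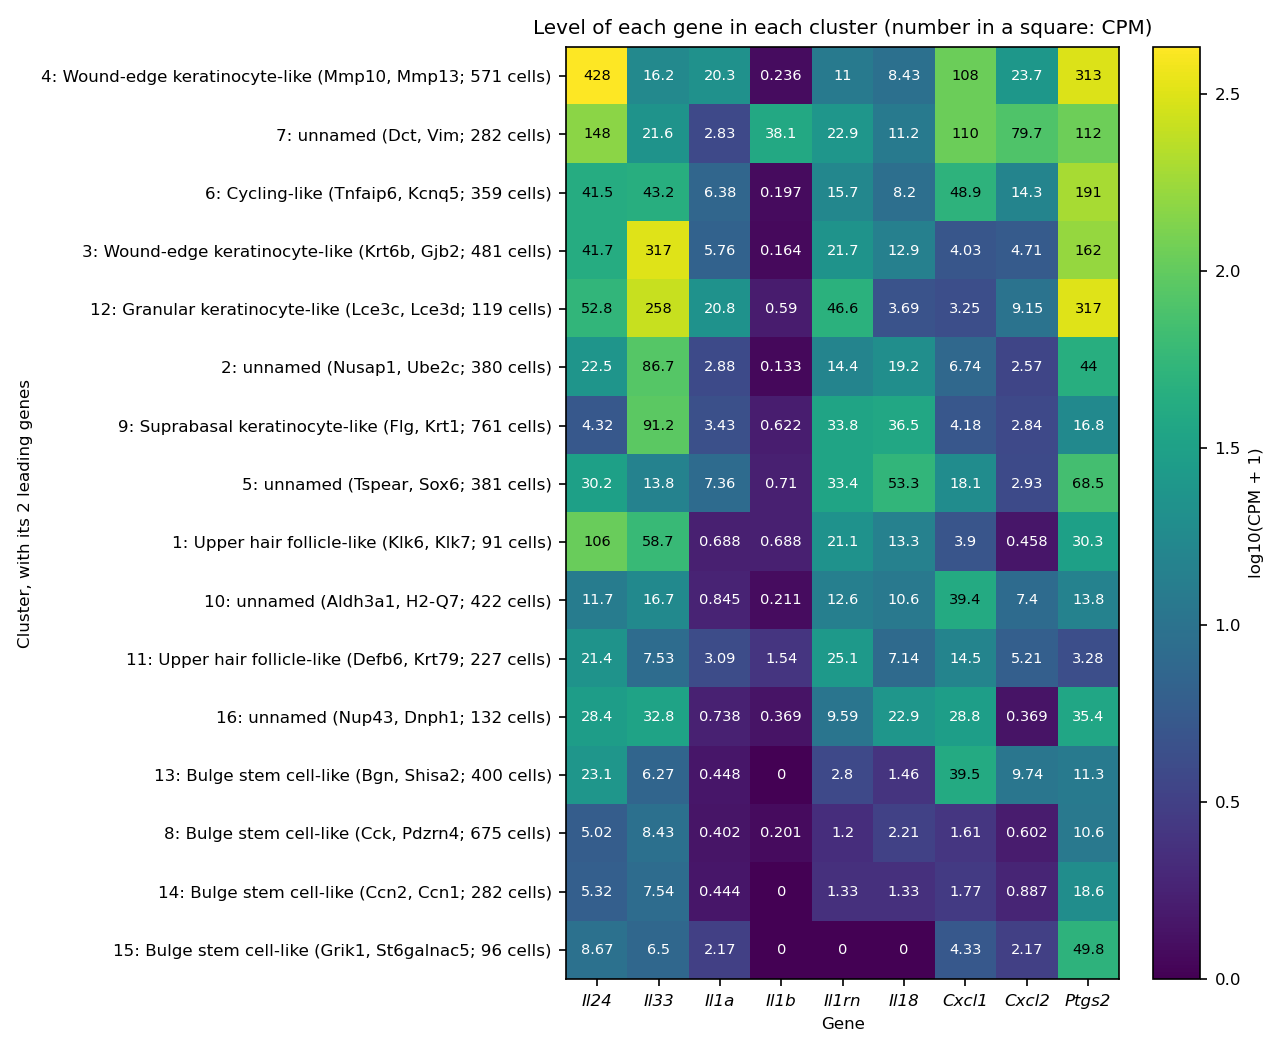
Level of each gene (columns) in each of 16 clusters (rows, with name, 2 leading genes and number of cells); colour gives log10(CPM + 1) and the number in a square gives CPM. Il24 at 428 CPM marks cluster 4, Cxcl1 is at 108 CPM there and 110 CPM in cluster 7, Il33 at 317 CPM marks cluster 3, and Il18 is highest in cluster 5 at 53.3 CPM.

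Il24 and Il33 were also apart when cells were counted singly. Of 4591 wounded cells, 619 had at least 5 Il24 UMIs and 667 had at least 5 Il33 UMIs. The Il24-rich cells, with 16.9% of all wounded UMIs, held 93.0% of Il24 by choice, and with it 53.6% of Cxcl1, 42.0% of Ptgs2, 41.5% of Cxcl2 and 40.7% of Il1a, but 5.58% of Il33, 6.39% of Il18 and 10.7% of Il1rn. The Il33-rich cells, with 21.7% of UMIs, held 27.4% of Il1rn, 25.8% of Il18 and 23.7% of Ptgs2, but 6.68% of Il24 and 4.98% of Cxcl1. The Il24-rich cells thus held more of the Ptgs2 than their share of UMIs, and the Il33-rich cells about their share. For the Il33-rich cells this varied by pool. They held 11.9% of Ptgs2 with 19.1% of UMIs in fl/fl at 3 days, and 30.2% with 21.5% in +/+ at 5 days. The 1015 cells with at least 5 Ptgs2 UMIs held 65.1% of Il24 and 37.8% of Il33 with 31.5% of UMIs. In fl/fl at 3 days such cells held 24.7% of Il33 with 33.0% of UMIs.

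**Figure D4:**
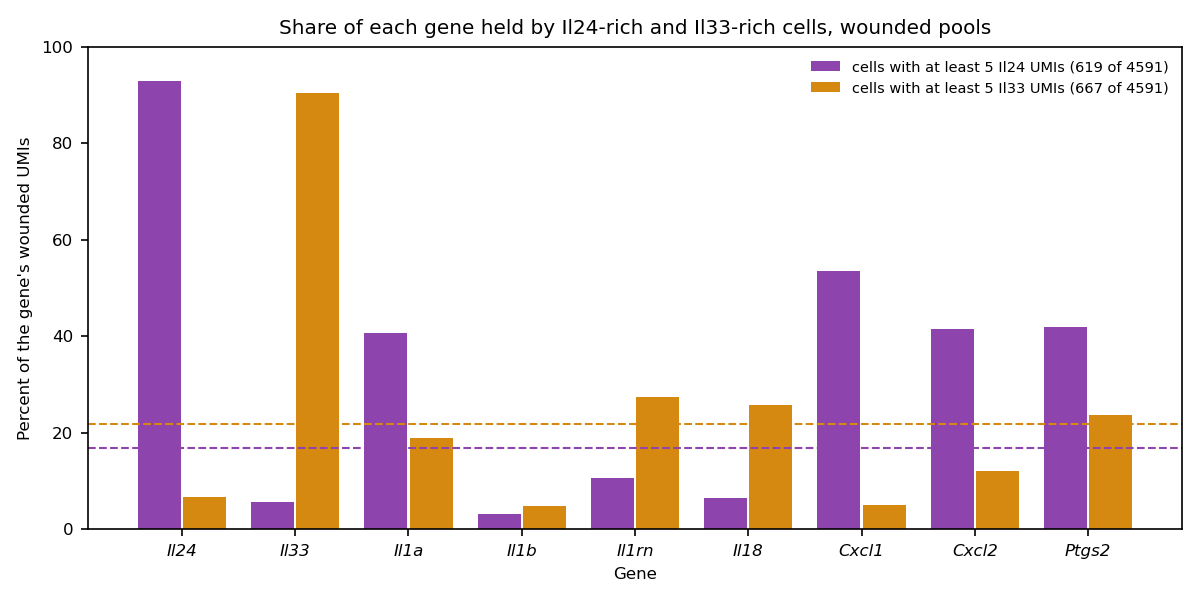
Percent of each gene's UMIs in the wounded pools that lay in the 619 cells with at least 5 Il24 UMIs (purple bars) and in the 667 cells with at least 5 Il33 UMIs (orange bars); dashed lines give the share of all UMIs in those cells, 16.9% and 21.7%. Il1a, Cxcl1, Cxcl2 and Ptgs2 stand above the purple line and Il33, Il18 and Il1rn below it.

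The same held at 1 depth in each pool. Thinned to 10000 UMIs, 10.1% and 14.5% of fl/fl cells with Il24 (3 and 5 days) also had Il33, against 21.3% and 21.9% of all fl/fl cells. In +/+ cells the shares were 11.5% and 14.1% of cells with Il24, against 22.6% and 20.6% of all. For Ptgs2 the order was turned: it was in 57.1% and 52.3% of fl/fl cells with Il24 against 29.9% and 32.6% of all, and in 58.1% and 47.1% of +/+ cells with Il24 against 30% and 24.9% of all. These cells share libraries and sources, so the shares are given with no test.

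Between genotypes, few of the genes differed by 2-fold after wounding. At 5 days none of the 8 genes differed by 2-fold between fl/fl and +/+, where 0.0199% of all genes were at least 2-fold higher and 2.07% at least 2-fold lower in fl/fl. The log2 folds there ran from -0.22 for Il33 (-0.28 to -0.17) to 0.51 for Cxcl2 (0.34 to 0.69), with 0.35 for Ptgs2, 0.27 for Cxcl1 and 0.19 for Il24. At 3 days 1 of the 8, Il18, was at least 2-fold lower in fl/fl, at a log2 fold of -1.15 (-1.39 to -0.91), where 0.398% of all genes were; none was higher by that much, where 0.11% of all genes were. The others ran from -0.55 for Il1rn (-0.73 to -0.37) and -0.52 for Il33 (-0.61 to -0.44) to 0.28 for Ptgs2 (0.22 to 0.33), 0.35 for Il24 (0.29 to 0.41) and 0.50 for Cxcl1 (0.39 to 0.60). Il1b, left out of these counts by its level, had log2 folds of -4.00 at 3 days and -3.10 at 5 days that rest on the 6 cells named above.

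The lower Il18 of fl/fl cells at 3 days was seen in 8 of 10 clusters with at least 20 cells in both pools. In cluster 3 it was 2.42 CPM in fl/fl against 17.4 CPM in +/+, and in cluster 2, an unnamed cluster led by Nusap1 and Ube2c, 12.7 CPM against 31.1 CPM. In cluster 9, where it was high, it was 37.3 CPM in fl/fl and 46.6 CPM in +/+, a log2 fold of -0.32 (-0.74 to 0.08). With each cluster given equal weight the log2 fold of Il18 was -0.66, and with at most 5% mitochondrial UMIs per cell it was -0.97, both short of 2-fold. Cells of clusters 5 and 9, the highest in Il18, numbered 17 and 32 of 523 in fl/fl and 73 and 126 of 1281 in +/+ at 3 days, and their part in the pool difference was not tested. Among cells called male, Il18 was at 8.03 CPM in fl/fl, against 17.4 CPM in +/+ at 3 days.

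Within cluster 4 the genotypes stayed close for Il24 and parted for Cxcl1 at 5 days. Il24 was at 646 and 278 CPM in fl/fl cells of the cluster (3 and 5 days) and at 527 and 310 CPM in +/+ cells. Cxcl1 was at 124 and 138 CPM in fl/fl and 92.2 and 73.1 CPM in +/+ cells. Ptgs2 was at 479 and 222 CPM in fl/fl and 347 and 260 CPM in +/+ cells. Il24, Ptgs2 and Il1a were lower at 5 than at 3 days in this cluster in both genotypes, and Cxcl1 was lower in +/+ only; the difference between genotypes was not tested.

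Elsewhere the pool value hid unlike clusters. Cxcl1 was higher in fl/fl over the whole pool at 5 days, yet it was lower in fl/fl in 8 of 11 clusters. In cluster 6 at 3 days, Cxcl2 was at 20.2 CPM in 24 fl/fl cells, against 3.15 CPM in 53 +/+ cells. At 5 days it was there at 21.5 CPM in 179 fl/fl cells, against 5.41 CPM in 99 +/+ cells. Cxcl2 was found in few cells of each wounded pool, as given above, so these values can rest on a few cells. The difference between genotypes in cluster 6 was not tested. Il1rn was lower in fl/fl at 3 days in 7 of 10 clusters. In cluster 9 it was 23.7 CPM (16.9 to 32.2) in 32 fl/fl cells and 49.0 CPM (43.5 to 54.9) in 126 +/+ cells, and in cluster 12 it was 23.8 CPM (16.2 to 33.8) in 26 fl/fl cells and 54.1 CPM (46.6 to 62.4) in 61 +/+ cells. At 5 days it was close in cluster 9, 31.5 CPM in fl/fl against 30.4 CPM in +/+ cells.

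For Il33, cluster 3 gave 221 and 280 CPM in fl/fl (3 and 5 days) and 364 and 362 CPM in +/+ cells, lower in fl/fl at both times. Over all clusters Il33 was lower in fl/fl in 7 of 10 at 3 days and 7 of 11 at 5 days. Cluster 12 varied most: Il33 was at 44.5 CPM in 26 fl/fl cells at 3 days, 553 CPM in 21 fl/fl cells at 5 days and 166 CPM in 61 +/+ cells at 3 days.

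In unwounded cells the counts were too few for a firm order. Of the 8, 5 differed by at least 2-fold, Il1a (7 UMIs in fl/fl, 1 in +/+) and Cxcl1 higher in fl/fl and Il33, Cxcl2 and Ptgs2 lower, where 0.757% of all genes were at least 2-fold higher and 1.44% lower. The intervals of the log2 folds were wide: -0.83 to 7.63 for Il1a, 0.41 to 3.25 for Cxcl1, -5.95 to -0.35 for Cxcl2. Leaving out the highest cell of each pool left 0 of the 8 at least 2-fold higher and 1 lower, and with equal weight per cluster the log2 folds of Ptgs2 and Il33 turned to 0.25 and 0.20, against -1.15 and -1.07 over whole pools. After wounding the genotypes also differed in sex makeup, while neither unwounded pool had a cell called female. Among male cells at 3 days Cxcl1 was still the higher in fl/fl, at 49.0 CPM in fl/fl, against 35.0 CPM in +/+. Several other differences shrank among male cells. At 5 days male fl/fl cells had 59.3 CPM of Il24, against 59.1 CPM in male +/+ cells. In the same order, Cxcl1 was then 34.0 against 31.5 CPM, and Ptgs2 116 against 105 CPM. Il1rn at 3 days was 14.4 against 17.2 CPM. Some differences were larger among male cells. Examples were Il33 at 5 days (90.3 against 118 CPM) and Ptgs2 at 3 days (158 against 126 CPM). In +/+ cells at 5 days, Ptgs2 was at 30.9 CPM in cells called female and 105 CPM in cells called male, and Il33 at 52.2 and 118 CPM. In +/+ cells at 3 days, Ptgs2 was at 153 CPM in cells called female and 126 CPM in cells called male, the other way round from 5 days, and Il33 at 91.4 and 101 CPM.

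**Figure D5:**
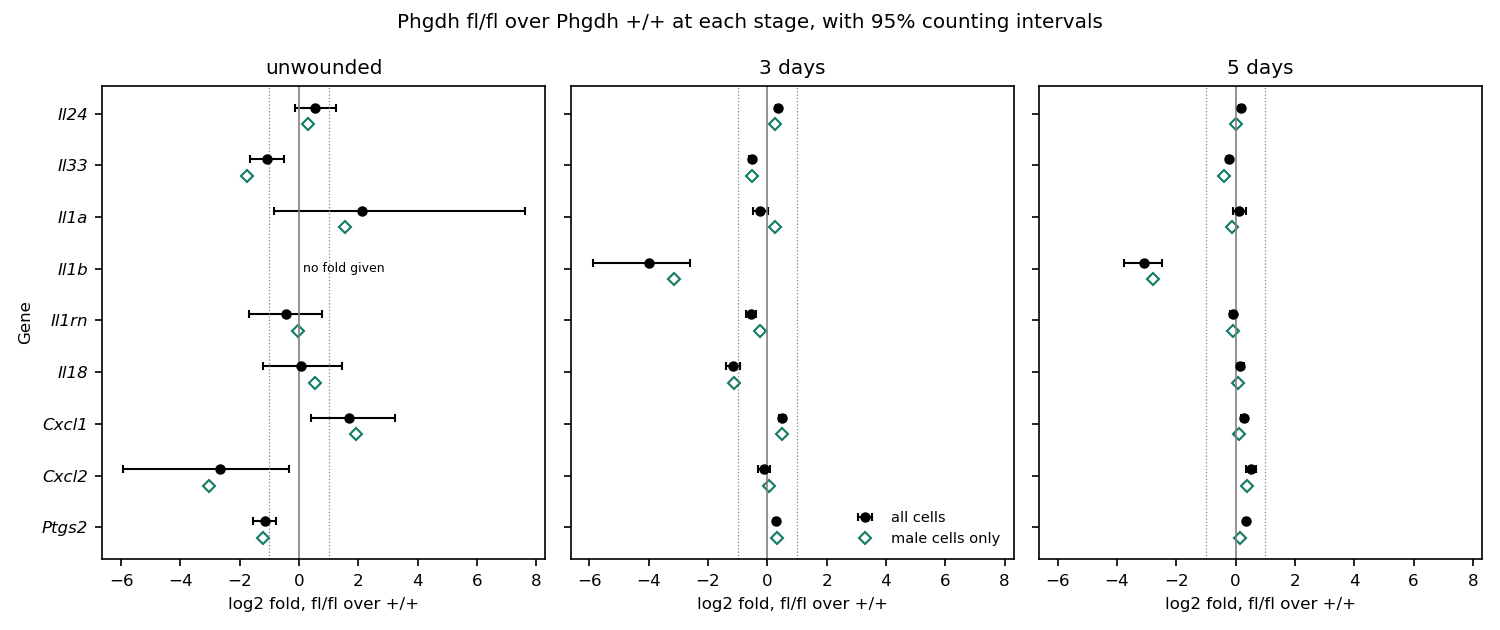
Log2 fold of fl/fl over +/+ for each gene at each stage, over all cells (black, with 95% counting intervals) and over cells called male (open green diamonds); dotted lines mark 2-fold, and no fold is given for Il1b in unwounded cells, where 1 and 0 UMIs were counted. At 5 days every gene but Il1b lies between -0.22 and 0.51 over all cells, and at 3 days Il18 lies at -1.15.

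The genes that carry these signals were measured from fixed lists. Of 17 measured genes of Toll and IL1 receptor signalling and NF-kB, 1 was at least 2-fold higher in each wounded pool, Myd88, the adaptor shared by these receptors, at 7.16, 22.6 and 20.2 CPM in fl/fl and 9.26, 20.5 and 20.7 CPM in +/+ pools. That is below the share of all genes that were higher. At least 2-fold lower were 1 at 3 days and 2 at 5 days in either genotype, Tab1 at both times and Tab2 at 5 days, both adaptors of the kinase TAK1 and named after their values were seen. The list's median log2 fold was -0.25 and -0.32 in fl/fl (3 and 5 days) and -0.12 and -0.30 in +/+. Of 10 measured NF-kB feedback targets, 4 were at least 2-fold higher in fl/fl at both times and 6 in +/+ at both times. At least 2-fold lower were 1 and 0 in fl/fl (3 and 5 days) and 0 and 0 in +/+. Of all genes, 11.7% to 13.3% were higher and 26.0% to 26.6% lower by that much. Bcl3, an NF-kB cofactor, was at 3.68, 35.5 and 44.9 CPM in fl/fl and 5.24, 35.4 and 43.0 CPM in +/+ pools, and Tnfaip3, an inhibitor of NF-kB signalling, at 14.1, 42.4 and 49.0 CPM in fl/fl and 12.6, 54.9 and 54.3 CPM in +/+ pools.

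For IL24, the receptor subunit Il20rb was lower after wounding, at 67.9, 28.2 and 27.6 CPM in fl/fl and 102, 33.0 and 33.7 CPM in +/+ pools. Socs3, a feedback inhibitor of STAT3, was at 65, 128 and 160 CPM in fl/fl and 55.8, 137 and 180 CPM in +/+ pools. Of 7 measured genes of the IL20 family list, at least 2-fold higher were 0 and 1 in fl/fl (3 and 5 days) and 2 and 2 in +/+. At least 2-fold lower were 1 and 1 in fl/fl and 2 and 2 in +/+. Of all genes, 11.7% to 13.3% were higher and 26.0% to 26.6% lower by that much, so these counts are a description only.

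Among other keratinocyte chemokines, those most abundant in the unwounded pools were lower in the wounded pools, where Cxcl1 and Cxcl2 were higher. Cxcl14 was at 1575, 268 and 74.0 CPM in fl/fl and 1503, 252 and 141 CPM in +/+ pools, and Ccl27a at 436, 48.1 and 29.4 CPM in fl/fl and 531, 62.2 and 73.2 CPM in +/+ pools. Of 7 measured genes of that list, 3 were at least 2-fold lower and 2 higher in each wounded pool, where 26.0% to 26.6% of all genes were lower and 11.7% to 13.3% higher. Between genotypes at 5 days, 3 of the 7, Cxcl12, Ccl27a and Ccl2, were at least 2-fold lower in fl/fl than in +/+, where 2.07% of all genes were. Of 9 measured other epithelial cytokines and danger signals, 5 and 5 were at least 2-fold higher in fl/fl (3 and 5 days) and 4 and 5 in +/+. None of the 9 was at least 2-fold lower. The shares of all genes are again 11.7% to 13.3% higher and 26.0% to 26.6% lower. Tslp, the epithelial cytokine that primes type-2 immunity, peaked at 3 days like Il24, at 4.45, 22.9 and 10.6 CPM in fl/fl and 3.70, 18.7 and 7.28 CPM in +/+ pools.

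Over the 16 clusters with at least 50 cells, the genes most like each of the 8 in log2(CPM + 1) were different ones, except that Cxcl1 and Cxcl2 shared St3gal1. For Il24 they included Rrbp1, Pitpnc1, Cap1 and Tnfrsf12a, the receptor of TWEAK (Pearson r of 0.853). For Il33 they were Glrx (r of 0.948), Klk13, Blmh, Krt6b and Sprr1b. For Cxcl1 they were Txnrd1 (0.923), Nrg1, St3gal1, Mbd2 and Icam1, and for Cxcl2 Pxdc1 (0.880), St3gal1, Nfkb1, Man1a and Cdcp1. Il1a went with Vegfa (0.864), Procr, Mmp9, Ehd4 and Ero1l, and Il1rn with Bcl3 (0.938), Chmp4b and Ehf among others. For Il18 they were Pou3f1 (0.906), Ly6a, Tent5a, Rnpep and Htatip2, and for Ptgs2 Elk3 (0.896), Mboat1, Spire1, Gsr and Hilpda. These lists depended on the clustering. Over the 11 clusters of at least 50 cells at Leiden resolution 0.5, no gene named for Cxcl2 or Ptgs2 stayed, and for Il1a only Ero1l did. St3gal1 was then listed for Cxcl1 but not for Cxcl2, and Tnfrsf12a for both Il24 and Cxcl2. Il24 kept Rrbp1, Pitpnc1 and Tnfrsf12a, and Il33 kept Glrx, Klk13 and Blmh. The clusters share libraries and depth, and the values describe likeness only.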

How the data were processed

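Single cells of the Sox9-CreER lineage were profiled as 3′ RNA with hashtags. The deposited matrix holds UMI counts per gene or hashtag and barcode; per the submitters' processing notes it was made with Cell Ranger 7.1.0 on mm10, with Seurat 4.3.0 downstream. The deposited feature list names each hashtag's condition. Barcodes needed 1000 UMIs and 500 genes (9829); of these, 2929 with over 10% of UMIs from mitochondrial genes were dropped. The 6900 left held 5659 hashtag singlets (HTODemux of Seurat 5.3.0, quantile 0.99), which were analysed. 503 hashtag doublets and 738 negatives were left out; doublets within a hashtag stay, and no doublet caller was run. Pool totals were between 3241223 and 70925244 UMIs. Clusters (scanpy 1.11.5, 2000 variable genes without the 9 described, 30 components, 15 neighbours, Leiden resolution 1, and 0.5 as a check) took names from fixed markers by a rule set after the data were seen. Folds are ratios of pool CPM, called at 2-fold; genes entered counts if their mean over the 6 pools reached 5 CPM. Sex calls used at least 2 UMIs of Xist against Y-linked genes. Free RNA came from 65043 barcodes with 100 to 400 UMIs.

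Named were the 9 genes, up to 4 genes of each of 11 lists by largest fold, and the 5 genes most like each member over clusters (a few of these are not reported here), plus Phgdh and genes marked in the text or under 5 CPM, added for their role. The genes, lists and comparisons were chosen with earlier results of these data known. The fold calculation was tested on simulated data. Promoters are from a RefSeq table of GRCm38.p6. Alternatives were other cell and hashtag filters, TMM factors (edgeR 4.0.16), equal weights, other level filters, and leaving out immune-marked or highest cells. A further alternative kept only cells called male, which drops cells of unclear sex as well as those called female. Leaving out the myeloid-like cells and a depth of 10000 UMIs were added after seeing the data.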

Additional observations from a re-analysis of the deposited data

Results flagged for a closer look

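In 3 genes fl/fl and +/+ cells differed in opposite directions at different stages; none of these differences was tested. Il18 had a log2 fold of fl/fl over +/+ of -1.15 at 3 days and 0.16 at 5 days. Cxcl2 had -2.67 in unwounded cells, from 2 fl/fl and 8 +/+ UMIs, and 0.51 at 5 days. Ptgs2 had -1.15 in unwounded cells, against 0.28 at 3 days and 0.35 at 5 days.

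Barcodes left out of the pools held some of the genes at levels above all 6 pools. The 738 barcodes with no hashtag had 63.5 CPM of Cxcl1 and 17.6 CPM of Cxcl2. The 503 hashtag doublets had 8.68 CPM of Il1b, 97.7% of it in 5 barcodes, and 21.5 CPM of Cxcl2, 75.7% of it in 5. The 2929 barcodes dropped for mitochondrial UMIs, with a median of 8559 UMIs, had 251 CPM of Il33, 16 CPM of Il1a, 44.4 CPM of Il1rn and 4.45 CPM of Il1b, 96.9% of the Il1b in 5 barcodes. The highest pools had 104 CPM of Il33, 9.55 CPM of Il1a and 22.0 CPM of Il1rn.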

How the results depend on the processing

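Of 262 counts of members under an alternative, 233 stayed within 1.5 times the reported count and 29 moved. Of 1150 member log2 folds 906 stayed within the counting interval of the reported fold, 237 moved beyond it and 7 reported at 2-fold or more changed sign. Of 108 shares of cells, 63 stayed within their interval and 45 moved beyond it. No paired analysis was possible because each condition is 1 pool with no replicate number. Requiring a mean of 20 CPM left 4 genes, all 4 at least 2-fold higher in each wounded pool, and took Il18 out of the counts, leaving 0 higher at 5 over 3 days in fl/fl and 0 lower in fl/fl at 3 days, with 1 higher in unwounded fl/fl. Lower at 5 over 3 days in +/+ were 2 genes at 2000 UMIs per cell, at 5% mitochondrial UMIs and with equal weight per cell, which also gave 2 in fl/fl. Lower in fl/fl at 3 days were 0 at 5% mitochondrial UMIs and with equal weight per cluster, and 2 with equal weight per cell or no level filter; at 5 days these last settings gave 1. Equal weight per cluster gave 0 higher at 5 over 3 days in fl/fl, and could not be had for wounded over unwounded pools, which shared 0 clusters.

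The unwounded genotype comparison moved most. Higher in fl/fl were 0 at 20% mitochondrial UMIs, with equal weight per cell or per cluster and without the highest cell, and 1 under the stricter hashtag rule, without immune-marked cells and in male cells. Lower were 1 under the stricter hashtag rule, with equal weight per cell and without the highest cell, and 0 without the 5 highest cells. At 20% mitochondrial UMIs Cxcl1 turned to -0.86 there and Cxcl2 in +/+ at 5 days over unwounded to -0.06. Il1a turned to -0.60 under the stricter hashtag rule and -1.61 with equal weight per cluster, Il33 to 0.36 without the 5 highest cells and 0.20 with equal weight per cluster, and Ptgs2 to 0.25 with equal weight per cluster. The cause was not tested. The few UMIs of the unwounded pools limit every fold against them.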
